A study of Mus musculus with 6 samples.

Results

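Genes of cholesterol and fatty acid synthesis were compared between E0771 cells with lowered lamin A/C and their control. The set lists 43 genes of 7 roles, chosen by name: the mevalonate steps, the steps from squalene to cholesterol, the SREBP factors with their regulators, sterol transport and esterification, acetyl-CoA supply with fatty acid synthesis, elongation with desaturation, and the acyl-CoA synthetases with lipin. Of these 43, 40 matched a gene symbol among the 10520 genes of the count table, and 37 had enough counts to be tested. Idi1, Ggps1 and Lpin1 were measured at too few counts for a test, and Fdft1, Abca1 and Soat1 were not analysed here. E0771 is a breast carcinoma line of C57BL/6 mice, a strain often used for transplanted tumours. The 3 shControl libraries came from cells that received an empty pLKO.5-puro lentiviral vector, so the control carried no hairpin. The 3 shLmna libraries came from cells that received the same type of vector with 1 hairpin against Lmna. Both lines were selected and expanded in puromycin. The labels do not say that replicates were separate cultures, so p-values measure only the spread between these libraries, which may be technical.

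Cells make cholesterol from acetyl-CoA through mevalonate, isoprenoids and squalene, and make fatty acids from malonyl-CoA, which are then lengthened and desaturated. SREBP transcription factors are held in the endoplasmic reticulum by Scap and the Insig proteins when sterols are plentiful, and when sterols run low they are cut by proteases in the Golgi and enter the nucleus. Srebf2 is best known for driving sterol genes, and Srebf1 for driving fatty acid and desaturase genes, and growing cells use both branches to build membranes.

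RNA 3′ ends were sequenced by MARS-seq, in which a unique molecular identifier (UMI) lets copies of 1 captured molecule be counted once. Libraries held between 1846208 and 3242051 UMIs. Lmna, the targeted gene, had 2066, 2794 and 1764 UMIs in shControl and 1035, 1023 and 713 in shLmna, a log2 fold change of -1.20 (SE 0.13, adjusted p = 3.5e-05 by edgeR's quasi-likelihood test, adjusted over all genes by Benjamini and Hochberg). Of 6 epithelial markers, 4 were measured. The keratin Krt8 had 516 to 814 UMIs in every library, whereas Epcam had 34, 46 and 25 in shControl and 14, 32 and 8 in shLmna. Krt18 had 19, 14 and 17 against 7, 20 and 7, and Krt7 had 4 to 10 UMIs a library. Within shLmna, Epcam and Krt18 were highest in replicate 2. A pair of libraries stood apart from the rest. The 5 measured melanocyte markers (Pmel, Dct, Tyrp1, Mlana and Sox10) summed to 1390 UMIs in shControl replicate 3 and 1622 in shLmna replicate 2, against 1 to 12 in the other 4 libraries. Melanoma cells of the B16F10 line were studied in the same project, the labels call all 6 samples E0771, and the source of these transcripts was not tested. Calls that changed without both libraries are given beside the results. The groups also occupied neighbouring plate positions, 13 to 15 for shControl and 16 to 18 for shLmna, so that position and group cannot be told apart. Summed immune markers (2 of 6 measured) were 30 to 49 UMIs in shControl and 39 to 65 in shLmna. The 2 went opposite ways, with the myeloid gene Lyz2 at 10 to 23 and 29 to 42. Cd68, the other, had 34, 26 and 17 UMIs in shControl and 23, 15 and 10 in shLmna. Fibroblast markers (4 of 6) were 35 to 60 and 58 to 79. Pecam1, the only endothelial marker measured, stayed between 2 and 7, and the part of these cell types in the results was not tested.

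Of the 37 tested genes, 4 were higher in shLmna at an adjusted p below 0.05 (10.8%), where 7.96% of all 8969 tested genes were called higher. They were Srebf1, the SREBP-1 gene, the stearoyl-CoA desaturases Scd1 and Scd2, and Acsl3, an acyl-CoA synthetase of the endoplasmic reticulum and lipid droplets. None of the 37 was lower by edgeR's quasi-likelihood test, DESeq2 or limma-voom, which called 5.78%, 4.98% and 5.76% of all tested genes lower. By edgeR's quasi-likelihood test, 4 of the 37 were lower at an unadjusted p below 0.05. By sign, 18 lay above 0 and 19 below, and the median log2 fold change was -0.01, against 0.00 over all tested genes. At an unadjusted p below 0.05, 29.7% of the 37 differed, close to 28.4% of all tested genes. By the study's criteria (mean normalized count above 5, absolute log2 fold change above 1 and adjusted p below 0.05), 2 genes passed, Scd2 and Acsl3, or 5.41% against 5.71% of all. The set as a list therefore stood near the background, and its calls lay in its SREBP, desaturase and acyl-CoA synthetase members.

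**Figure D1:**
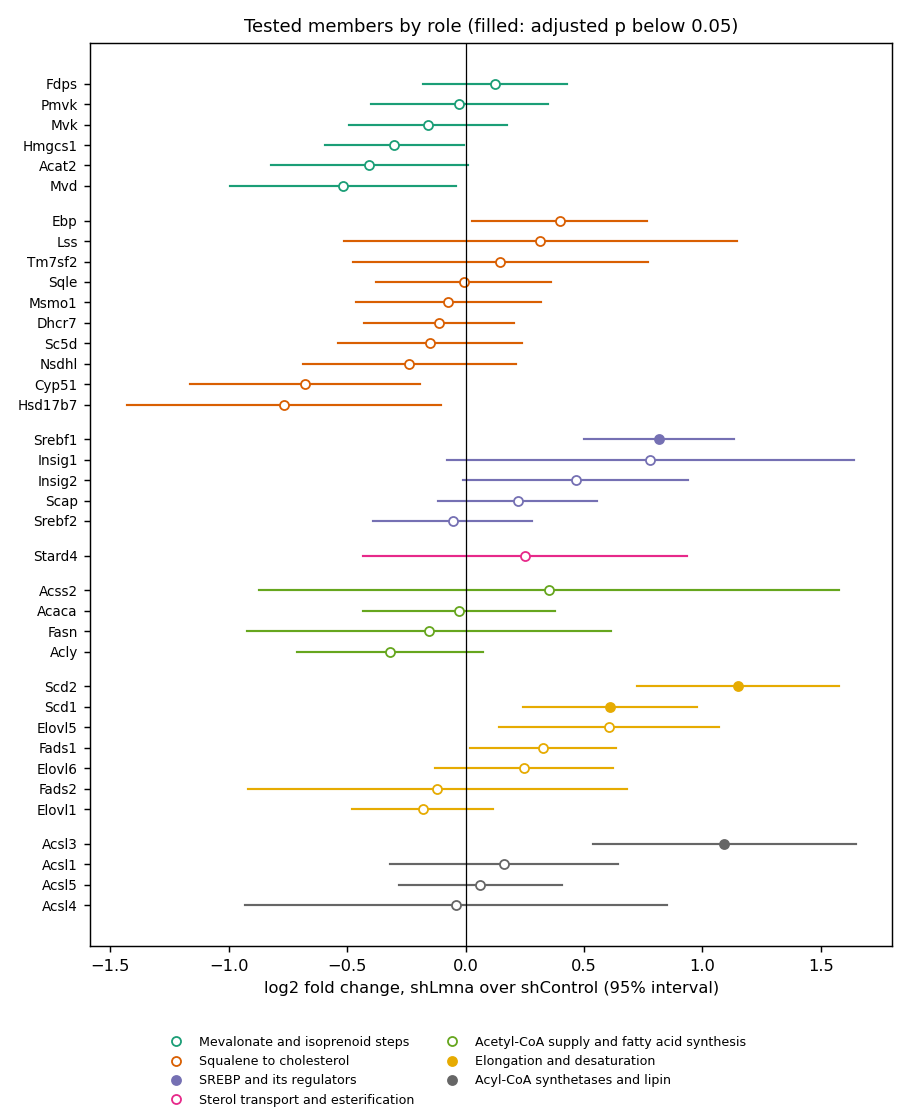
Log2 fold change of shLmna over shControl with its 95% interval (x axis) for the 37 tested genes, arranged and coloured by role, with filled points for an adjusted p below 0.05. The 4 filled points, Srebf1, Scd2, Scd1 and Acsl3, lie to the right of 0, and the mevalonate genes except Fdps lie to its left.

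Promoter sequence is shown for genes with estimates on both sides of 0. It is shown because SREBP binds sterol response elements near gene starts together with the factor NF-Y, which binds CCAAT. Of the genes shown, Hmgcs1, Cyp51 and Hsd17b7 were not called lower in this comparison, only in fits with the GC correction given below. The windows are from RefSeq on GRCm38.p6 and run from 250 bases before to 50 bases after the start. Of the 40 measured genes, 34 matched a window, with 44 windows in all. Fads1, Fdps, Scd1, Scd2, Sqle and Stard4 had none. Capitals mark matches on either strand to CCAAT, to the E-box CACGTG and to the sterol-response-element-like TCACNCCAC.
Hmgcs1 promoter, chr13:119690101-119690400, plus strand: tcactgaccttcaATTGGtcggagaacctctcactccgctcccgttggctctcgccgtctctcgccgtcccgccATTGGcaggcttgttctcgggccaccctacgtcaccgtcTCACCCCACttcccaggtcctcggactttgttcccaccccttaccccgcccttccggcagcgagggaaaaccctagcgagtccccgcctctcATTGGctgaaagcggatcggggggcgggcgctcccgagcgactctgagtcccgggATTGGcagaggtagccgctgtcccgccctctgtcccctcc
Cyp51 promoter, chr5:4104648-4104947, minus strand: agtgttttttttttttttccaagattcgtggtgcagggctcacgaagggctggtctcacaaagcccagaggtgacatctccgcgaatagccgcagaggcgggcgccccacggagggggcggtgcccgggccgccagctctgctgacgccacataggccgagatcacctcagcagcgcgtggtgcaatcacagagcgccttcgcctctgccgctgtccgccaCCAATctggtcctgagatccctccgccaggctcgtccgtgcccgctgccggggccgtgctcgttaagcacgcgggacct
Hsd17b7 promoter, chr1:169969156-169969455, minus strand: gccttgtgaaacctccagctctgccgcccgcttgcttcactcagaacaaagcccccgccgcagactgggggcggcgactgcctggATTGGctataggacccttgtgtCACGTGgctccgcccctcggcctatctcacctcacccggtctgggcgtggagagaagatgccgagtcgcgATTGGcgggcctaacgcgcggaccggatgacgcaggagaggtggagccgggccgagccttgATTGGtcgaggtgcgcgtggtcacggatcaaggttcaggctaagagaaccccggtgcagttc
Acsl3 promoter, chr1:78657575-78657874, plus strand: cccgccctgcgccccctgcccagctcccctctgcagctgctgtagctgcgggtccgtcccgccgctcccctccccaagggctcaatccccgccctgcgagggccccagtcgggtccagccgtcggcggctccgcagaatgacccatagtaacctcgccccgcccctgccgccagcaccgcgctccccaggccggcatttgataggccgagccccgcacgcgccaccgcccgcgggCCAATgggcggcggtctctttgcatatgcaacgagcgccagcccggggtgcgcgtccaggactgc
Srebf1 promoter, chr11:60210422-60210721, minus strand: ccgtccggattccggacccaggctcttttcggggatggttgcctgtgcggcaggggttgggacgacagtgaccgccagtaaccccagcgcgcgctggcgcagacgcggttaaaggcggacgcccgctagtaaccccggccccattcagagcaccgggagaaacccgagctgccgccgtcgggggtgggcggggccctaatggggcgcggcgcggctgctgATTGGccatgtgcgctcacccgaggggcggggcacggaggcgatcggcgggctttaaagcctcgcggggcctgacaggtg
Hmgcs1 has 4 CCAAT matches and an element TCACCCCAC 137 bases before its start, Hsd17b7 has 3 CCAAT matches and an E-box, and Cyp51 and Acsl3 have 1 CCAAT match each. Srebf1 has 3 annotated starts, and the printed one holds a CCAAT match 30 bases before it. Across the 44 windows 28 hold CCAAT (63.6%), against 37.4% of all 32851 promoter windows and 37.5% of those of tested genes. The E-box is in 7 windows of 6 genes (15.9%, against 7.15% of all windows and 10.4% of those of tested genes), and 2 of the 7 are overlapping Scap windows that hold the same match. The sterol-response-element-like motif is in 2 windows (4.55%, against 1.24% and 1.19%), those of Hmgcs1 and Acsl1. Matches overlapped one another in 1 window, that of Fasn. These are matches of letters only, and they occur in genes whose estimates lay above, below and near 0.

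Srebf1 (chr11:60199089-60222581) encodes SREBP-1, the SREBP of fatty acid and desaturase genes. It had 324, 400 and 233 UMIs in shControl and 662, 627 and 344 in shLmna. Scaled to the mean effective library size, which gives the normalized count, the values were 316, 311 and 307 against 616, 572 and 454. Every shLmna library was above every shControl library, and the shControl values were nearly equal. The mean was 311 ± 4.30 in shControl and 548 ± 83.6 in shLmna (SD, n = 3), a 1.76-fold difference (95% interval 1.42 to 2.19). The log2 fold change was 0.82 (SE 0.15, adjusted p = 0.0023, edgeR's quasi-likelihood test), and it was called in every alternative fit. The counted end of Srebf1 overlaps Rai1 on the other strand over 209 of 1100 bases. Rai1 itself had 74, 114 and 75 UMIs in shControl and 121, 165 and 98 in shLmna (log2 fold change 0.60, adjusted p = 0.0448). Whether counting used strand is not given in the sources used here, and without it reads of the overlap cannot be told apart.

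Srebf2, the SREBP of sterol genes, was not called. Its normalized counts were 282, 241 and 237 in shControl and 281, 212 and 239 in shLmna, with a log2 fold change of -0.05 (95% interval -0.39 to 0.28). The interval excludes a rise of the size seen for Srebf1. Within each library, Srebf1 had 1.12, 1.29 and 1.29 UMIs per UMI of Srebf2 in shControl and 2.19, 2.70 and 1.90 in shLmna, and this ratio does not depend on the scaling between libraries. With 3 libraries a group no exact test of a ratio can pass the threshold, so ratios are given as a description.

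Of the other SREBP regulators, none passed the test, and all had estimates above 0. Insig1, which retains the SREBP-Scap complex, was scarce, with 8, 10 and 6 UMIs in shControl and 12, 21 and 7 in shLmna (log2 fold change 0.78, 95% interval -0.08 to 1.64). Only its shLmna libraries reached the minimum count for a test. Insig2, the paralogue of Insig1, had normalized counts of 33.1, 37.3 and 46.1 in shControl and 47.5, 56.5 and 55.5 in shLmna (0.46, adjusted p = 0.188 by edgeR's quasi-likelihood test). In normalized counts the groups of both genes did not overlap, although the nearest values of Insig1, 7.91 and 9.25, rest on 6 and 7 UMIs and shLmna replicate 1 of Insig2 lay only just above shControl replicate 3. For Scap, the sterol-sensing escort of SREBP, the estimate was 0.22 (SE 0.16). Summed over the 5 genes, the CPM (UMIs scaled to the effective library size) was 353, 340 and 319 in shControl and 501, 457 and 397 in shLmna, with Srebf1 as the largest part in each library.

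**Figure D2:**
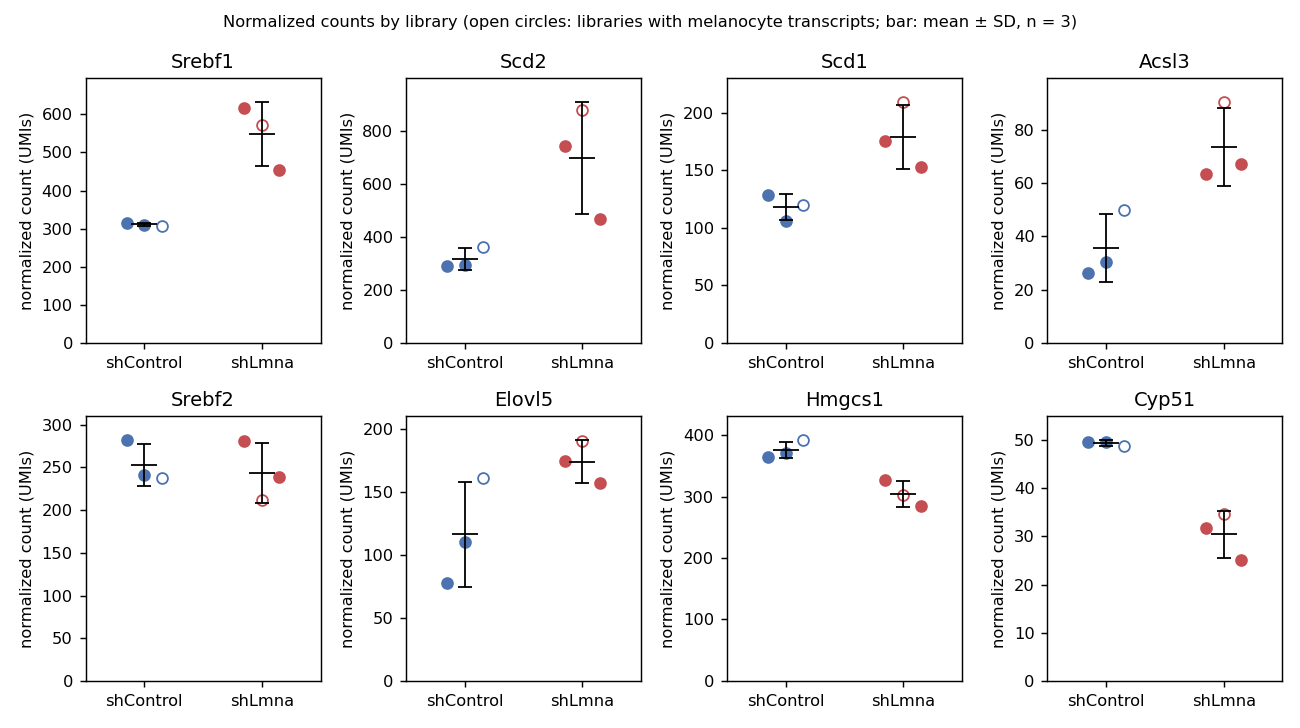
Normalized counts (y axis, UMIs) of 8 genes in the 3 shControl and 3 shLmna libraries, with bars for mean ± SD and open circles for the pair of libraries with melanocyte transcripts. Srebf1, Scd2, Scd1 and Acsl3 have every shLmna value above every shControl value, Hmgcs1 and Cyp51 have every shLmna value below, and Srebf2 and Elovl5 overlap.

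Desaturation and elongation was the role with most calls, 2 of its 7 genes. Scd2 (chr19:44293674-44306864), a desaturase that makes monounsaturated from saturated fatty acids, had 297, 379 and 275 UMIs in shControl and 797, 965 and 353 in shLmna. Normalized, the values were 289, 294 and 362 against 742, 880 and 466. All 3 shLmna libraries were above all shControl libraries, but shLmna replicate 3 stood well below the other 2. The difference was 2.22-fold (95% interval 1.65 to 2.98), a log2 fold change of 1.15 (SE 0.20, adjusted p = 0.0016, edgeR's quasi-likelihood test), the largest among the tested genes of the set, and it was called in every alternative fit. Scd1 (chr19:44394455-44407879), its paralogue on the same chromosome, had 132, 136 and 91 UMIs in shControl and 188, 229 and 116 in shLmna. The difference was 1.53-fold (95% interval 1.18 to 1.97), with a log2 fold change of 0.61 (SE 0.17, adjusted p = 0.0284, edgeR's quasi-likelihood test). The 1000-base ends of the paralogues share no stretch of 25 bases with each other or with the transcript end used for any other gene. Reads of one end can therefore be told from those of the other. Other transcripts and sequence outside these ends were not searched. The call of Scd1 was lost without shControl replicate 2 (adjusted p = 0.141), shLmna replicate 1 (0.0641) or shLmna replicate 2 (0.135), and without both libraries with melanocyte transcripts (0.111). Scd2 exceeded Scd1 in every library, by ratios of 2.25, 2.79 and 3.02 in shControl and 4.24, 4.21 and 3.04 in shLmna, so that the ratio of shLmna replicate 3 lay next to the highest of shControl.

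The 5 other elongases and desaturases were not called. Elovl5, which lengthens polyunsaturated fatty acids, had 80, 142 and 122 UMIs in shControl and 188, 209 and 119 in shLmna. The log2 fold change was 0.61 (adjusted p = 0.0807, edgeR's quasi-likelihood test) with all libraries, and 0.81 (adjusted p = 0.0130) without those that hold melanocyte transcripts. After normalization only shControl replicate 3, one of that pair, reached the shLmna range, at 161 against 157 to 191. In the fit without the pair, 7.68% of all tested genes were called higher and 5.43% lower, and 4 genes of the set were called higher, with Elovl5 in the place of Scd1, and 0 lower. Fads1, the delta-5 desaturase, had a log2 fold change of 0.33 (SE 0.15, adjusted p = 0.152) with groups that did not overlap. For Fads2, the delta-6 desaturase, the estimate was -0.12 with an interval from -0.92 to 0.68, too wide to compare it with Fads1. Elovl6, which lengthens saturated chains, was at 0.25 (SE 0.18). Elovl1, the elongase of very long chains and the most abundant of the set, had 1244, 1644 and 785 UMIs in shControl and 1138, 1029 and 844 in shLmna, a log2 fold change of -0.18 (95% interval -0.48 to 0.12). Its counted end overlaps Cdc20 on the other strand over 153 bases, and Cdc20 was itself lower in shLmna (-0.50, adjusted p = 0.0376).

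Acsl3 (chr1:78657825-78707743), which activates long-chain fatty acids to their CoA esters, had 27, 39 and 38 UMIs in shControl and 68, 99 and 51 in shLmna. Normalized counts were 26.3, 30.3 and 50.1 against 63.3, 90.3 and 67.4. The groups did not overlap, and shControl replicate 3, which holds melanocyte transcripts, was the highest control. The difference was 2.13-fold (95% interval 1.45 to 3.14), with a log2 fold change of 1.09 (SE 0.26, adjusted p = 0.0123, edgeR's quasi-likelihood test). It was 1.19 (adjusted p = 0.0049) without that pair of libraries, and the call was lost without shControl replicate 2 (adjusted p = 0.0841) or without shLmna replicate 2 (0.0603). Of the other acyl-CoA synthetases, Acsl5 was the most abundant, with 263, 410 and 288 UMIs in shControl and 338, 393 and 242 in shLmna (0.06, 95% interval -0.28 to 0.41). Its counted end overlaps Zdhhc6 on the other strand over 167 bases, and 45 of its 25-base stretches occur elsewhere. Acsl1 was at 0.16 (SE 0.23), and Acsl4, which prefers arachidonate, was at -0.04 on 9 to 15 UMIs a library. Lpin1, a phosphatidate phosphatase, had 3, 8 and 6 UMIs in shControl and 12, 19 and 6 in shLmna and was not tested. Per UMI of Acsl5, Acsl3 had 0.103, 0.0951 and 0.132 in shControl and 0.201, 0.252 and 0.211 in shLmna.

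**Figure D3:**
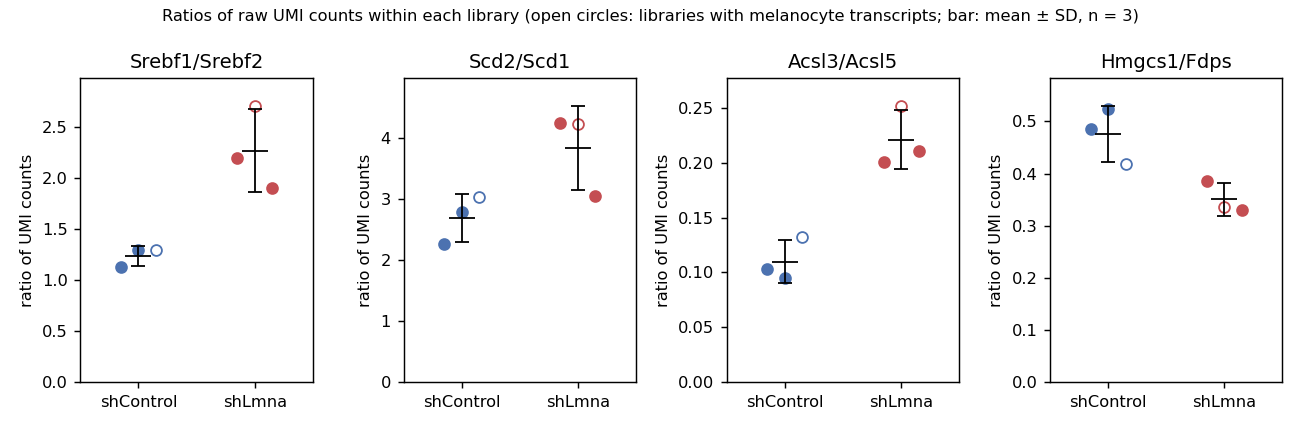
Ratio of the raw UMI counts of a pair of genes (y axis) in each of the 6 libraries, for Srebf1/Srebf2, Scd2/Scd1, Acsl3/Acsl5 and Hmgcs1/Fdps, with bars for mean ± SD and open circles for the libraries with melanocyte transcripts. The first, the second and the third ratio are higher in every shLmna library than in every shControl library, narrowly for Scd2/Scd1, and Hmgcs1/Fdps is lower.

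De novo fatty acid synthesis itself showed no called difference among its 4 genes. Fasn, the fatty acid synthase, was scarce at its counted end, with 15, 21 and 17 UMIs in shControl and 15, 12 and 18 in shLmna (log2 fold change -0.15, 95% interval -0.92 to 0.62), an interval that just includes the 0.61 of Scd1 and lies below the 0.82 of Srebf1. Acaca, the acetyl-CoA carboxylase that makes malonyl-CoA, was better measured, with normalized counts of 144, 113 and 88.3 against 115, 114 and 111 (-0.03, 95% interval -0.43 to 0.38). Acly, which makes cytosolic acetyl-CoA from citrate, had 423, 596 and 204 UMIs in shControl and 357, 303 and 237 in shLmna (-0.32, adjusted p = 0.277, edgeR's quasi-likelihood test). Its shControl replicate 3, a library with melanocyte transcripts, was the lowest of the 6 at a normalized 269, next to shLmna replicate 2 at 276. Leaving out 1 library moved the log2 fold change of Acly from -0.15 (adjusted p = 0.711, without shControl replicate 2) to -0.51 (0.0292, without shControl replicate 3), and without both libraries with melanocyte transcripts it was -0.44 (0.0933). Acss2, which makes acetyl-CoA from acetate, had at most 13 UMIs in a library.

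In the mevalonate steps 5 of 6 tested genes lay below 0 and 1 above, with a median log2 fold change of -0.23, and none passed the test. Hmgcs1 (chr13:119690379-119708260), the synthase of hydroxymethylglutaryl-CoA, had 375, 478 and 297 UMIs in shControl and 351, 331 and 216 in shLmna. Its normalized counts of 365, 371 and 391 in shControl were all above the 327, 302 and 285 of shLmna, a difference of -0.30 on the log2 scale (SE 0.14, adjusted p = 0.165, edgeR's quasi-likelihood test). Mvd, which makes isopentenyl pyrophosphate, was at -0.52 (SE 0.22, adjusted p = 0.143) with groups that did not overlap, and Acat2, the first enzyme of the route, at -0.41 (SE 0.19, adjusted p = 0.186). Acat2 shares 224 of the 976 stretches of 25 bases in its end with its near copy Acat3, and its count is uncertain for that reason. Mvk and Pmvk, the kinases of the route, were at -0.16 (SE 0.16) and -0.03 (SE 0.17).

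Fdps, which makes farnesyl pyrophosphate, was the most abundant gene of this role. It had 772, 912 and 710 UMIs in shControl and 908, 988 and 654 in shLmna, a log2 fold change of 0.13 (95% interval -0.18 to 0.43). Of the 976 stretches of 25 bases in its end, 860 also occur in 8 other annotated genes, and its counts may be shared with them. Its counted end also overlaps Gm43738 on the same strand over 806 of 1100 bases, so ratios to Fdps rest on an uncertain count. Hmgcs1 had 0.486, 0.524 and 0.418 UMIs per UMI of Fdps in shControl and 0.387, 0.335 and 0.330 in shLmna. Idi1, the isomerase of the route, had 1 to 7 UMIs a library, and Ggps1, which makes geranylgeranyl pyrophosphate, had 7, 8 and 6 in shControl and 4, 4 and 3 in shLmna.

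From squalene to cholesterol, 3 of 10 genes lay above 0 and 7 below, with a median log2 fold change of -0.09. Without the libraries with melanocyte transcripts 5 lay above and 5 below, with a median of 0.04. Sqle, the squalene epoxidase and the most abundant of them, had 245, 360 and 284 UMIs in shControl and 309, 356 and 204 in shLmna, a log2 fold change of -0.01 (95% interval -0.38 to 0.36). Cyp51 (chr5:4081145-4104746), the lanosterol demethylase, had normalized counts of 49.7, 49.7 and 48.8 in shControl and 31.7, 34.7 and 25.1 in shLmna. The groups were well apart, and the log2 fold change was -0.68 (SE 0.23, adjusted p = 0.0614, edgeR's quasi-likelihood test). The counted end of Cyp51 overlaps Akap9 on the other strand over 266 bases, and 52 of its 25-base stretches occur elsewhere. Hsd17b7 (chr1:169949535-169969241), a sterol ketoreductase, had 26, 32 and 31 UMIs in shControl and 16, 23 and 12 in shLmna (-0.77, SE 0.31, adjusted p = 0.117). Ebp, the sterol isomerase, lay the other way, with 157, 221 and 104 UMIs in shControl and 180, 223 and 184 in shLmna (0.40, SE 0.17, adjusted p = 0.146), and its groups overlapped. Estimates of the other 6 (Lss, Tm7sf2, Msmo1, Nsdhl, Sc5d and Dhcr7) were between -0.24 and 0.32. Of these the reductase Dhcr7, which makes cholesterol in the last step, was at -0.11 (SE 0.15), and the cyclase Lss had only 6 to 14 UMIs a library and overlaps 4930483K19Rik on the other strand over 193 bases. Stard4, the carrier that moves sterol between membranes, was the only measured gene of its role, at 0.25 with an interval from -0.43 to 0.94.

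Across the tested genes, shLmna above shControl in every library occurred for 8 of the 37 (21.6%, all genes 16.8%), namely Srebf1, Scd1, Scd2, Acsl3, Insig1, Insig2, Fads1 and the sterol reductase Tm7sf2. The opposite held for 4 (10.8%, all genes 15.7%), Hmgcs1, Mvd, Cyp51 and Hsd17b7, all of the sterol route. Insig1 passed the minimum count filter only through its shLmna libraries, so its place among the 8 depends on the group where it was higher. The summed CPM of the elongation and desaturation genes was 878, 901 and 837 in shControl and 1111, 1099 and 960 in shLmna. The mevalonate sum was 811, 795 and 924 against 839, 828 and 710, so that the groups overlapped.

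Calls among the sterol genes changed when GC content was taken into account. Over all tested genes the log2 fold change varied with GC content of the last 1000 transcript bases. Its median was 0.39 for the 466 genes below 35% GC and 0.13 for the 1245 genes from 35% to 40%, against -0.05 for the 1911 genes from 45% to 50%. Hmgcs1 has an end of 34.8% GC, Hsd17b7 of 38.0% and Cyp51 of 40.1%, and all lay below the median of genes of like GC. When a curve of this relation was fitted to each library and removed, these 3 genes became lower in shLmna at an adjusted p below 0.05 (8.11% of the 37), where 8.64% of all tested genes were called lower and 8.12% higher. The corrected log2 fold changes were -0.77 for Hmgcs1 (SE 0.16, adjusted p = 0.0041), -0.78 for Cyp51 (adjusted p = 0.0252) and -0.97 for Hsd17b7 (adjusted p = 0.0258), all by edgeR's quasi-likelihood test. This curve left the genes below 35% GC at a median of -0.19, past 0. With a robust curve, which left them at 0.09, Hmgcs1 was at -0.53 (adjusted p = 0.0273), Cyp51 at -0.73 (0.0357) and Hsd17b7 at -0.88 (0.0455), and 7.11% of all tested genes were called lower and 8.63% higher. With the first curve and without the libraries with melanocyte transcripts, Hmgcs1 (-0.80, adjusted p = 0.0045), Cyp51 (-0.90, 0.0353) and Acly (-0.53, 0.030) were called lower, 3 of 37 where 7.49% of all tested genes were, and Hsd17b7 was at -0.94 (0.0815). With all libraries, Srebf1, Scd1, Scd2 and Acsl3 were called higher with either curve, at 0.84, 0.58, 1.15 and 0.83 with the first.

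**Figure D4:**
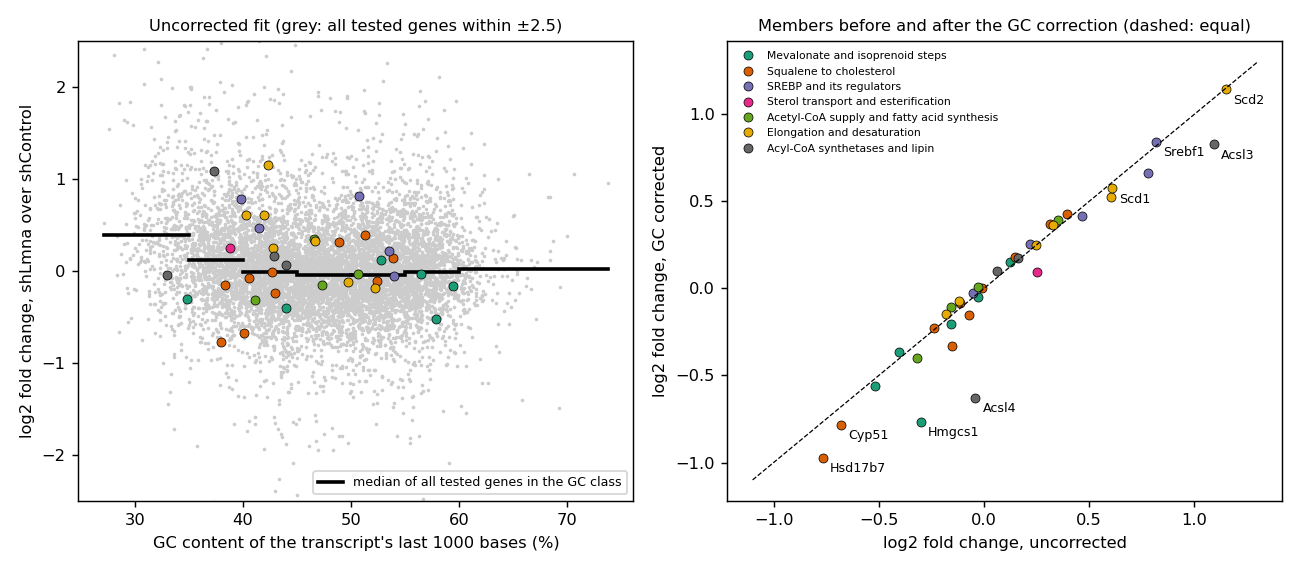
Left, log2 fold change (y axis) against GC content of the last 1000 transcript bases in percent (x axis), with all tested genes in grey, the set coloured by role and black lines for the median in classes of GC, 0.39 in the lowest class. Right, log2 fold changes after the least-squares GC correction (y axis) against those before it (x axis), where most genes stay on the dashed line and Hmgcs1 moves from -0.30 to -0.77.

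Related genes were taken as 6 lists outside the set. Of their 80 tested genes 2 were called higher and 3 lower, where 7.96% and 5.78% of all tested genes were. Of 10 tested genes of SREBP proteolysis and sterol control in the endoplasmic reticulum, 1 was called higher and 0 lower. It was Mbtps2, the site-2 protease that releases SREBP from the membrane, with 0, 2 and 2 UMIs in shControl and 46, 32 and 30 in shLmna. All shControl libraries were at or below a floor of 3 UMIs, against which Mbtps2 was at least 12.1-fold higher (adjusted p = 3.5e-05, edgeR's quasi-likelihood test), also with the GC correction, although its end has 34.6% GC. Mbtps2 passed the minimum count filter only through its shLmna libraries, where it was high. With a mean count of 50 or more required, it was not tested. Of 12 genes of sterol trafficking and LXR targets 1 was called higher, the lysosomal lipase Lipa, with 24, 27 and 32 UMIs against 46, 65 and 44 (0.94, adjusted p = 0.0391), a call lost by DESeq2 (0.0631) and without shControl replicate 1 (0.113), shControl replicate 2 (0.201), shLmna replicate 2 (0.119) or shLmna replicate 3 (0.120). Thinning to the smallest library also lost the call of Lipa.

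Of 14 other enzymes of fatty acid synthesis and elongation, 1 was called lower. Elovl3, an elongase of saturated chains, had 12, 14 and 8 UMIs in shControl and 3, 2 and 4 in shLmna (-1.80, adjusted p = 0.0235, edgeR's quasi-likelihood test). That call was lost by DESeq2 (0.108), without shControl replicate 2 (0.0719), shLmna replicate 1 (0.0870) or shLmna replicate 2 (0.114), and without both libraries with melanocyte transcripts (0.0968). Elovl3 passed the minimum count filter only through its shControl libraries, where it was high, so its test depended on that group. Of 13 genes of glycerolipid synthesis and lipid droplets, 4 lay above 0 and 9 below, and 1 was called lower. It was Plin2, a coat protein of lipid droplets, at 140, 167 and 101 UMIs against 101, 104 and 62 (-0.55, adjusted p = 0.0381), but leaving out any 1 library other than shControl replicate 3 gave an adjusted p of 0.0696 to 0.123, DESeq2 gave 0.0711, and leaving out both libraries with melanocyte transcripts gave 0.0682. The call of Plin2 was also lost with the GC correction and the replicate block together. Of 13 genes of prenylation and the dolichol and ubiquinone branches, 1 was called lower, the geranylgeranyl transferase subunit Rabggta, with 183, 243 and 119 UMIs against 118, 119 and 79 (-0.70, adjusted p = 0.0094), lost only without shControl replicate 2 (0.0620). In the main fit of edgeR's quasi-likelihood test with all libraries, none of 18 fatty acid oxidation genes was called. At an unadjusted p below 0.05, 3 were higher and 2 lower. Among the 16 kept by a mean count of 50 or more, the same test called Etfb higher (0.43, adjusted p = 0.0481). In that fit 7.27% of all tested genes were called higher.

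Some calls in these lists depended on the fit, and some of the genes concerned are named here, after their values were seen. Without the libraries with melanocyte transcripts, edgeR's quasi-likelihood test also called lower Vcp, the ATPase that extracts proteins from the endoplasmic reticulum (-0.58, adjusted p = 0.0210), and Cpt1a, the carnitine transferase of fatty acid oxidation (-0.67, 0.0394). It called higher Fnta, a subunit of the farnesyl transferase (0.61, 0.0246), and no longer called Elovl3 and Plin2. With the replicate block Vcp (-0.48, adjusted p = 0.0442) and Coq2, a transferase of ubiquinone synthesis (0.52, 0.0396), were added by the same test. With the GC correction the added genes were Coq2 (0.56, adjusted p = 0.0311), Zmpste24, the protease that matures prelamin A (-0.56, 0.0193), and the acyl-CoA synthetase Acsl6 (-1.04, 0.0036). The same 3 were added with the robust curve. When the libraries with melanocyte transcripts were also left out, the GC-corrected call of Zmpste24 was lost (-0.50, adjusted p = 0.0793, edgeR's quasi-likelihood test). Those of Coq2 (0.59, 0.0496) and Acsl6 (-1.26, 0.0023) stayed.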

How the data were processed

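MARS-seq data of 6 E0771 libraries were used, 3 shControl and 3 shLmna, grouped by the sample labels. The authors trimmed reads with cutadapt, mapped them to mm10 with STAR 2.4.2a and deposited whole-number counts of UMIs, without normalization, for RefSeq genes (final 1000 bases plus 100 beyond the end), with a counter modified from HTSeq. The 10520 genes deposited each reach at least 6 UMIs in some library, by a filter not given in the sources used here. Deposited ComBat-corrected values and the authors' DESeq2 comparison (fold changes and p-values) were not used.

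The test was run in edgeR 4.0.16 under R 4.3.3: filterByExpr with a minimum count of 10 (8969 genes kept), TMM scaling, and the quasi-likelihood test with Benjamini-Hochberg adjustment over all tested genes, without a replicate block. Fold changes are shLmna over shControl. Alternatives were DESeq2 1.42.0, limma-voom (limma 3.58.1), RLE and upper-quartile scaling, the replicate block, no filter or a mean count of 50 or more, thinning to the smallest library, each library left out, and a loess GC correction (span 0.3, degree 2). Leaving out the libraries with over 100 melanocyte UMIs, that together with the GC correction, and the robust curve were added after seeing the data. Positions and 3′ ends came from GENCODE M21 (GRCm38), matched to 10473 genes, 328 through an older symbol. These transcripts can differ from those counted. Promoters came from RefSeq. Python 3.11.15 with pandas 2.3.3, numpy 2.4.6 and matplotlib 3.10.9 served for sequences and plots. Scripts were tested on simulated data.

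All members are accounted for. Those with an adjusted p below 0.05, the most abundant of each role and 9 others (Srebf1, Srebf2, Insig1, Hmgcs1, Sqle, Fasn, Acaca, Scd1 and Scd2) were to be given with their values, with up to 3 called genes of each related list. Others were named after their values were seen. Members, roles and lists were chosen with earlier results of these data known. Precision is limited by UMI counts and 3 libraries a group, and replicates of a group differed by more than sampling noise (chi-square per degree of freedom 5.52 to 9.02).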

Additional observations from a re-analysis of the deposited data

How the results depend on the processing

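The 4 calls (Srebf1, Scd1, Scd2 and Acsl3) held in every fit with all 6 libraries, DESeq2, limma-voom and the replicate block included. Lmna stayed lower in all fits. Without 1 library, the members called higher were 2 (without shControl replicate 2, where 4.15% of all tested genes were, or shLmna replicate 2, 5.47%) to 5 (without shControl replicate 3, 9.61%), those called lower 0 to 1 (2.30% and 7.24% of all without shControl replicate 2 and without shControl replicate 3), those passing the study's criteria 0 to 2, and the median log2 fold change -0.026 to 0.16. The count of lower members was 3 instead of 0 with the GC correction (all tested genes 8.64%), with it and the replicate block (8.16%), with the robust curve (7.11%) and with the GC correction without the libraries with melanocyte transcripts (7.49%), and in these 4 fits 1 gene instead of 2 passed the study's criteria. The median was 0.11 without those libraries and 0.082 with the GC correction as well.

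Estimates near 0 changed sign. Sqle was at 0.017 with limma-voom, 0.00083 with upper-quartile scaling, 0.011 with the replicate block, 0.0049 with the GC correction, 0.016 with both, 0.015 with the robust curve, and 0.10 in both fits without the libraries with melanocyte transcripts. Without those libraries Msmo1 was at 0.11, Srebf2 at 0.0011, Fasn at 0.23 and Acsl4 at 0.20, and with the GC correction besides, Dhcr7 was at 0.040, Srebf2 at 0.053 and Fasn at 0.29. Acaca was at 0.0085 thinned, 0.0079 with the GC correction, 0.019 with the replicate block besides and 0.032 with the robust curve. Acsl4 was at 0.033 with limma-voom and 0.046 thinned. Leaving out 1 library gave Acaca -0.17 to 0.15, Acsl4 -0.35 to 0.33, Acsl5 -0.083 to 0.20, Acss2 -0.020 to 0.89, Fads2 -0.68 to 0.12, Fasn -0.48 to 0.073, Msmo1 -0.18 to 0.14, Pmvk -0.20 to 0.16, Sqle -0.15 to 0.18, Srebf2 -0.19 to 0.042 and Stard4 -0.036 to 0.73. The causes were not tested.

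Same-numbered libraries deviated from their group means with correlations of 0.35, -0.11 and 0.01, so the numbers were not taken as pairs, and the replicate block changed no call of a member. Genes with few UMIs have wide intervals, such as -0.87 to 1.58 for Acss2 and -0.51 to 1.15 for Lss, which do not exclude changes of the size called for Acsl3.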
